A study of Mus musculus with 6 samples.

Results

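The genes described are 10 genes of glutathione metabolism and of the response driven by the transcription factor Nrf2: Gclm, Gclc, Gss, Gsr, Slc7a11, Srxn1, Txnrd1, Prdx1, Hmox1 and Nqo1. They were chosen by name, and each was read from the probeset that names it alone, the brightest by its mean over 6 arrays where it had more than 1. By that rule 9 of the 10 genes were measured, out of 22180 genes with a probeset of their own. Prdx1 has only probesets that also name other genes, 3 in number, and its level is not given. Of the 9 genes, 7 reached the array's median on at least 2 of the 6 arrays and were tested among 14020 genes. Nqo1 and Slc7a11 lay below the median of every array, so they are described by their levels alone.

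RNA came from pools of 10 blastocysts, and every blastocyst in every group came from let7g-transgenic mice, so the control group carries the transgene too. Arrays came in 3 groups of 2. D4-act-7g is the activated group, taken on day 4. Dor-7g is the group that was dormant in the animal, taken on day 7. DOX-7g was also taken on day 7, after dormancy had been brought on in vitro by let-7 induced with DOX. The labels do not give the promoter of the transgene, the ages of the mice, or whether D4-act-7g met DOX or culture. Day and dormancy therefore change together between D4-act-7g and either dormant group and cannot be told apart. For DOX-7g culture and DOX may change with them, and could not be told apart from them either. The labels do not say whether paired arrays hold independent pools of embryos, so the spread behind a p-value here may be technical. In the fits below, that spread was estimated from the pairs of all 3 groups together, with help from other genes. It was not estimated from the groups compared alone.

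Glutathione is the main small thiol of the cell. Glutamate-cysteine ligase joins glutamate to cysteine in the step that limits its synthesis, and glutathione synthetase adds glycine. Cysteine arrives largely as cystine through a membrane exchanger. Oxidised glutathione is reduced again by glutathione reductase with NADPH, and a parallel system of thioredoxin, thioredoxin reductase, peroxiredoxins and sulfiredoxin removes peroxides. Under oxidative stress Nrf2 escapes its inhibitor Keap1, pairs with small Maf proteins and raises many of these genes through antioxidant response elements, where the repressor Bach1 can take its place. In preimplantation embryos, glutathione laid down in the oocyte protects development until the embryo makes its own.

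Dor-7g replicate 1 stood apart. Its median log2 signal was 4.87, where the remaining 5 arrays had medians of 4.62 to 4.67, and across probesets its correlation with any of them (Pearson's r) was at most 0.919, where the D4-act-7g pair reached 0.978 and the DOX-7g pair 0.969. Calls that rest on Dor-7g are therefore also given without replicate 1. Defining markers of the blastocyst were present: Krt18 of the trophectoderm lay between 12.81 and 13.37 log2 units on all arrays, and Pou5f1 of the inner cell mass between 5.83 and 6.13, while Sox2 lay below the median of every array, at 3.60 to 3.92. The log2 of the summed level of 6 measured blood markers was 8.41 and 9.53 in D4-act-7g, 8.38 and 9.77 on Dor-7g arrays, and 11.58 and 11.10 in DOX-7g, with Ptprc, the defining leukocyte gene, below the median of every array. S100a8, S100a9 and Ly6g carried the higher sum of DOX-7g, with S100a8 at 10.91 and 10.12 there and between 2.81 and 7.18 elsewhere, while Cd68 was no higher there, at 7.41 and 6.87 beside 6.90 to 9.34 elsewhere. The summed level of 6 uterine stroma markers was 7.83 and 7.89 in D4-act-7g, 8.18 and 9.81 on Dor-7g arrays, and 7.86 and 8.10 in DOX-7g. The value of Dor-7g replicate 2 came mainly from Dcn, at 9.29 there and between 3.67 and 4.22 elsewhere. The summed level of 6 oocyte and cumulus markers was 8.85 and 8.38 in D4-act-7g, 7.96 and 7.88 on Dor-7g arrays, and 7.87 and 7.94 in DOX-7g. Zp3 carried it, at 8.15 and 7.35 in D4-act-7g and between 5.69 and 6.59 on the dormant arrays. Ptx3 went the other way, at 3.99 and 4.10 in D4-act-7g and between 4.26 and 4.98 on the dormant arrays. Gdf9, Bmp15, Oosp1 and Has2 overlapped between D4-act-7g and Dor-7g. On both DOX-7g arrays Gdf9, Bmp15 and Has2 lay below both D4-act-7g arrays, while Oosp1 overlapped. The summed level of inner cell mass markers was 10.13 and 10.49 in D4-act-7g, 10.83 and 10.09 on Dor-7g arrays, and 9.55 and 9.31 in DOX-7g. Zfp42 led it. The summed level of uterine epithelium markers was 10.73 and 10.93 in D4-act-7g, 11.07 and 11.12 on Dor-7g arrays, and 11.33 and 11.27 in DOX-7g. Wfdc2 led it. Muc1 was at 4.91 and 4.65 in D4-act-7g and 5.74 to 6.11 on the dormant arrays, where Pgr was lower. The summed level of trophectoderm markers was 13.19 and 13.18 in D4-act-7g, 13.26 and 13.58 on Dor-7g arrays, and 13.71 and 13.62 in DOX-7g. Krt18 led it, and Tfap2c was lower on every dormant array. The part of other cells in the results below was not tested. In pooled embryos, fewer cells of a type and less RNA per cell cannot be told apart.

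Gclm encodes the modifier subunit of glutamate-cysteine ligase, which makes the catalytic subunit more efficient. It was the single gene of the 7 tested that passed the threshold, a Benjamini-Hochberg adjusted p under 0.05 from limma's fit over all genes, and it was lower in both dormant groups. Gclm stood at 8.49 and 8.63 log2 units on the D4-act-7g arrays, at 6.43 and 6.63 on the Dor-7g arrays, and at 6.80 and 6.03 on the DOX-7g arrays. All 4 dormant arrays lay below both day-4 arrays, and the ranges of the dormant groups overlapped. The summed oocyte and cumulus markers, carried by Zp3, were likewise lower on all 4 dormant arrays, while Ptx3 of that list was higher. Gdf9, Bmp15 and Has2 of that list were lower on both DOX-7g arrays and overlapped in Dor-7g. The summed inner cell mass markers, led by Zfp42, were lower on both DOX-7g arrays. The summed trophectoderm and uterine epithelium markers were higher on all 4 dormant arrays. The part of these cells in the Gclm result was not tested. The group means were 8.56 ± 0.10 in D4-act-7g, 6.53 ± 0.14 for Dor-7g and 6.42 ± 0.54 in DOX-7g (SD, n = 2 arrays each).

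Between Dor-7g and D4-act-7g, Gclm fell by 2.03 ± 0.28 log2 units (SE; limma, adjusted p = 0.0471), to 24.5% of its day-4 level. Between DOX-7g and D4-act-7g it fell by 2.14 ± 0.28 (SE; limma, adjusted p = 0.0399), to 22.7%. These comparisons share the D4-act-7g arrays, and neither adjusted p lies far under the threshold. The background share of called genes was 0.984% in the first comparison (0.742% lower) and 0.956% in the second (0.250% lower and 0.706% higher), and by its p Gclm ranked 132nd and 116th of the 14020 genes. Between DOX-7g and Dor-7g the difference was -0.11 ± 0.28 (limma, adjusted p = 0.876), with a 95% interval of -0.82 to 0.59.

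The Gclm call was lost without some single arrays. Such fits leave 1 array in a group and cannot measure that group's spread, so only changes are given here. Without Dor-7g replicate 1 the change in Dor-7g was -1.93 and the call was lost, and without replicate 2 it was -2.13. Without D4-act-7g replicates 1 and 2 the change in Dor-7g was -2.10 and -1.96, and that in DOX-7g was -2.21 and -2.07. Both calls were lost there. Calls over all genes became fewer there too, but more numerous without Dor-7g replicate 1. Without DOX-7g replicate 2, the lower of that pair, the change in DOX-7g was -1.76 and the call was lost. Without DOX-7g replicate 1 it was -2.52. With the replicate number as a block, neither call held (limma, adjusted p = 0.0962 for Dor-7g and 0.0905 for DOX-7g).

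**Figure D1:**
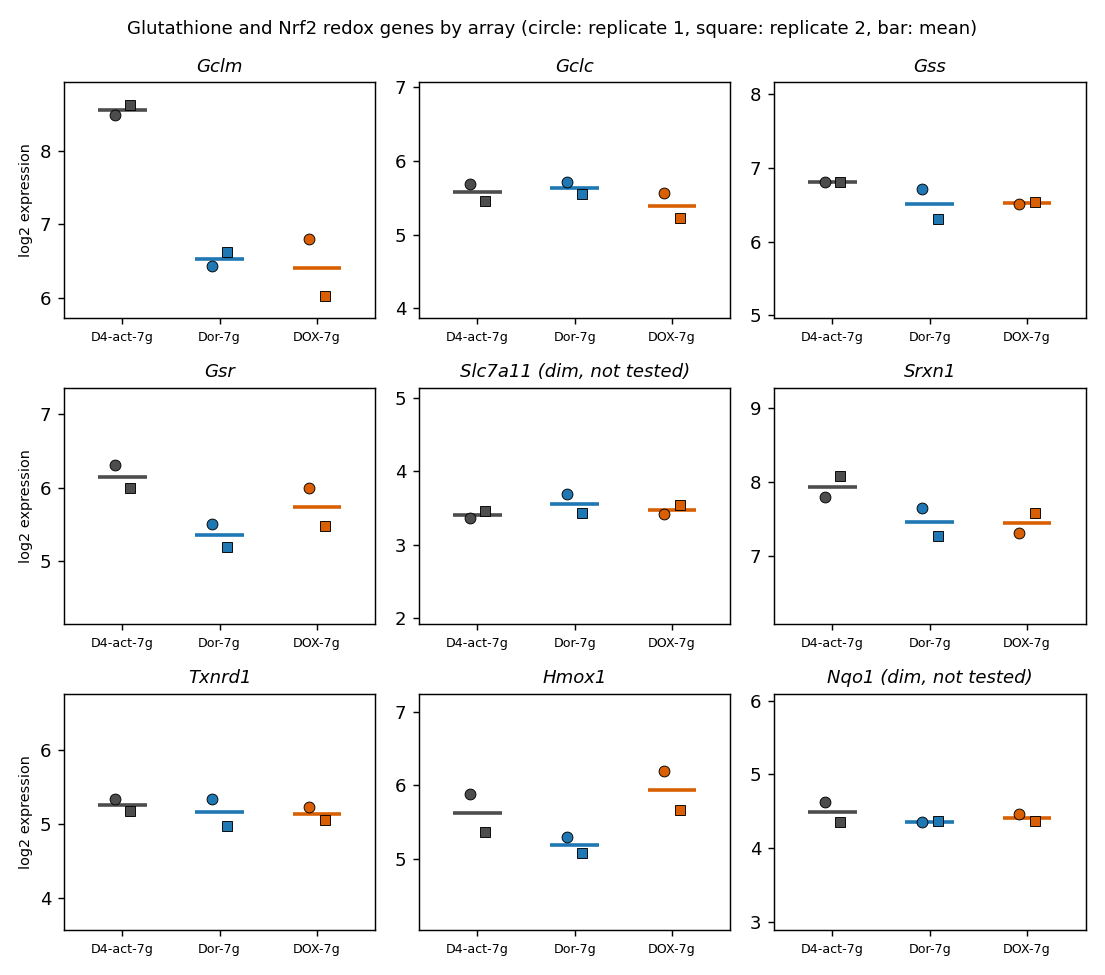
Log2 expression of the 9 measured genes on each array, with 1 panel per gene and the 3 groups on the horizontal axis; circles are replicate 1, squares replicate 2 and bars the group mean, and every panel spans the same number of log2 units. Gclm is near 8.56 in D4-act-7g and near 6.53 and 6.42 in the dormant groups, while Gclc lies between 5.22 and 5.71 on all arrays.

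Promoter windows and the let-7g strand are printed because the study induced let-7g and because Nrf2 acts through short promoter elements. The mature let-7g strand is given from RefSeq (GRCm38.p6, chr9:106178846-106178867, plus strand), 22 bases long, with its seed, bases 2 to 8, in capitals.
mmu-let-7g-5p: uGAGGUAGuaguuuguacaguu
Promoter windows of 300 bases, 250 before and 50 after an annotated start, were found in RefSeq for 7 of the 10 genes. They were searched on both strands for TGACNNNGC, the core of the antioxidant response element, and for TGANTCA, the related AP-1 element, which can overlap it. Capitals mark each match, and both windows run 5′ to 3′ on the strand of the gene. The Gclm window lies at chr3:122245307-122245606 on the plus strand and holds 1 match of the first motif, at -134 to -126 relative to the start.
Gclm: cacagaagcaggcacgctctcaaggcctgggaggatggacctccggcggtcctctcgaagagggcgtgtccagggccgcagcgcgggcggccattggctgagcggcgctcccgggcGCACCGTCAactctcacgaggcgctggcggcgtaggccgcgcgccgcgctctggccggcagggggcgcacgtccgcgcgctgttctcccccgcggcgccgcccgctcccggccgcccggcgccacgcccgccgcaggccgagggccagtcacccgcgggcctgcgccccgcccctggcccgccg
The Srxn1 window lies at chr2:152105274-152105573 on the plus strand and holds 2 matches of the second motif before the start and 1 of the first motif after it.
Srxn1: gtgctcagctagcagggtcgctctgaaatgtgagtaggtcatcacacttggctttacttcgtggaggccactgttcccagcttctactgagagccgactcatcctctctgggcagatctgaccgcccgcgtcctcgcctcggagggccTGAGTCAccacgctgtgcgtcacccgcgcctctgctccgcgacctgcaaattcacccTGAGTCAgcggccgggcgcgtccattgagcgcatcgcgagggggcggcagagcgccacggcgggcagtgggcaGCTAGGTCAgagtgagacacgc

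The first motif was found in windows of 4 of those 7 genes, namely Gclm, Srxn1, Prdx1 and Txnrd1, and the second in Prdx1 and Srxn1. Some genes have more than 1 start: counted by window, 4 of 9 windows held the first motif, where 12.4% of all 32851 windows of the same length held it and 7.81% the second. The Gclm window was 79.7% G and C, a higher share than in 98.8% of all windows. The windows of Gss, Nqo1 and Slc7a11 held neither motif. A match here is a run of letters and no measured binding site.

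Gclc, the catalytic subunit that Gclm assists, did not pass in any comparison. It stood at 5.69 and 5.46 log2 units in D4-act-7g, 5.71 and 5.55 on Dor-7g arrays, and 5.56 and 5.22 in DOX-7g. The ranges of all 3 groups overlapped. Its change was 0.06 ± 0.21 in Dor-7g (SE; limma, adjusted p = 0.911; 95% interval -0.45 to 0.57) and -0.18 ± 0.21 in DOX-7g (adjusted p = 0.885; 95% interval -0.69 to 0.33). The sign of the change in Dor-7g turned with either rescaling of the arrays, to -0.01 and -0.07.

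The difference between the 2 subunits within an array does not depend on how arrays are scaled to each other by a constant. Gclm minus Gclc was 2.80 and 3.17 in D4-act-7g, 0.72 and 1.07 on Dor-7g arrays, and 1.23 and 0.81 in DOX-7g. By this measure too, each dormant array lay below both day-4 arrays, and the change was -2.09 for Dor-7g and -1.96 for DOX-7g. An exact permutation test of 2 against 2 arrays gave a two-sided p = 0.333 for each change, the smallest it can give.

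Gss encodes glutathione synthetase, the second step of the pathway. It stood at 6.81 and 6.80 log2 units in D4-act-7g, 6.72 and 6.31 on Dor-7g arrays, and 6.51 and 6.54 in DOX-7g. All dormant arrays lay below the day-4 range, Dor-7g replicate 1 by less than the Dor-7g arrays differed from each other. The changes were -0.29 ± 0.20 (SE; limma, adjusted p = 0.557) and -0.28 ± 0.20 (adjusted p = 0.743).

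Gsr, glutathione reductase, had the largest difference after Gclm among the 7 genes in Dor-7g. It stood at 6.31 and 5.99 log2 units in D4-act-7g, 5.51 and 5.19 on Dor-7g arrays, and 5.997 and 5.49 in DOX-7g. The Dor-7g arrays lay below both day-4 arrays, whereas DOX-7g overlapped both other groups. The change in Dor-7g was -0.80 ± 0.26 (SE; limma, adjusted p = 0.245; unadjusted p = 0.0214, a level that 14.3% of all genes reached), and that in DOX-7g was -0.41 ± 0.26 (adjusted p = 0.69).

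Slc7a11, the cystine exchanger that supplies cysteine, was dim on every array. Its brighter probeset stood at 3.36 and 3.45 log2 units in D4-act-7g, 3.69 and 3.43 on Dor-7g arrays, and 3.41 and 3.54 in DOX-7g. Its other probeset lay between 2.61 and 3.32. No group stood apart from another, and differences between such dim levels may be compressed.

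Srxn1 encodes sulfiredoxin, which repairs overoxidised peroxiredoxins. It stood at 7.80 and 8.08 log2 units in D4-act-7g, 7.66 and 7.27 on Dor-7g arrays, and 7.32 and 7.58 in DOX-7g. All 4 dormant arrays lay below both day-4 arrays, as with Gclm, but by less: the changes were -0.48 ± 0.23 (SE; limma, adjusted p = 0.409) and -0.49 ± 0.23 (adjusted p = 0.53). Neither passed. The 95% intervals ran from -1.04 to 0.08 and from -1.05 to 0.07.

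Txnrd1, the cytosolic thioredoxin reductase, stood at 5.35 and 5.18 log2 units in D4-act-7g, 5.35 and 4.98 on Dor-7g arrays, and 5.22 and 5.05 in DOX-7g. The 3 groups overlapped. Its changes were -0.10 ± 0.21 (SE; limma, adjusted p = 0.849) and -0.12 ± 0.21 (adjusted p = 0.938), and a change beyond -0.63 or 0.41 lay outside both 95% intervals.

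Hmox1 encodes heme oxygenase, which breaks down heme and is held down by Bach1. It was the only gene of the 7 tested whose dormant groups did not overlap, which 15.0% of all genes did in this direction: it stood at 5.29 and 5.07 log2 units in Dor-7g, 6.20 and 5.66 in DOX-7g, and 5.87 and 5.37 in D4-act-7g. Hmox1 was higher in DOX-7g than in Dor-7g by 0.75 ± 0.28 (SE; limma, adjusted p = 0.403; unadjusted p = 0.0368, a level that 11.6% of all genes reached) and did not pass. Against D4-act-7g the changes were -0.44 ± 0.28 in Dor-7g (adjusted p = 0.525) and 0.31 ± 0.28 in DOX-7g (adjusted p = 0.83), and DOX-7g overlapped the day-4 range.

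Nqo1, the quinone reductase often used as a readout of Nrf2, lay at 4.35 to 4.63 log2 units over the 6 arrays, below the median of each. The groups overlapped, with means of 4.49 ± 0.19 in D4-act-7g, 4.36 ± 0.01 for Dor-7g and 4.41 ± 0.06 in DOX-7g (SD, n = 2 each).

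**Figure D2:**
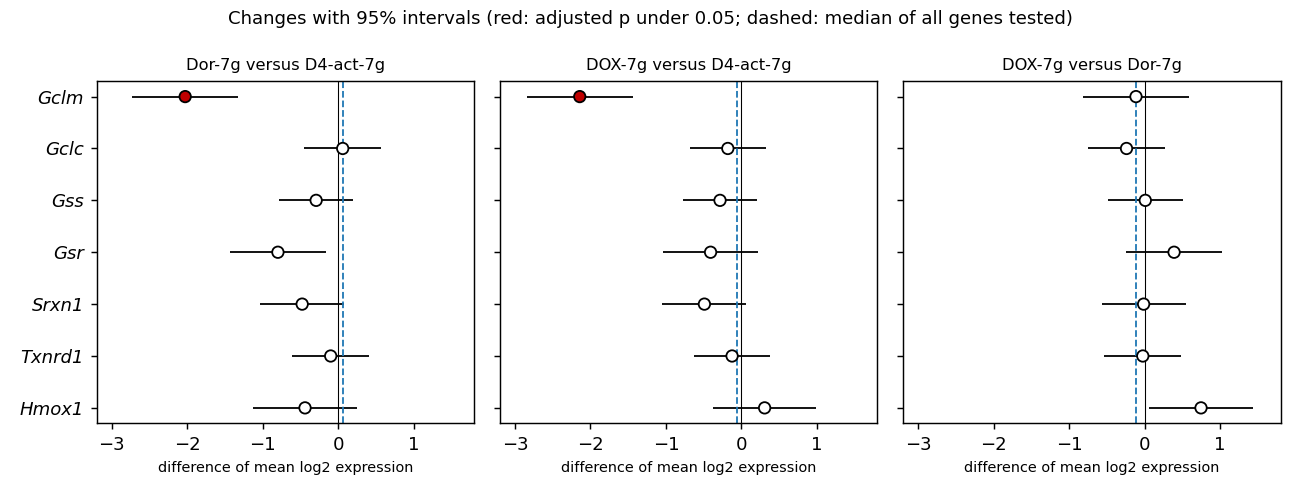
Differences of mean log2 expression for the 7 tested genes in the 3 comparisons, as points with 95% intervals from limma; red points passed an adjusted p of 0.05, and the dashed line is the median change of all 14020 genes. Gclm alone passed, at -2.03 and -2.14, and no gene passed between the dormant groups.

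Over the 7 tested genes, 1 was called in Dor-7g against D4-act-7g and 1 in DOX-7g against D4-act-7g, the same gene Gclm. Of all genes, 0.984% and 0.956% were called there. Without Dor-7g replicate 1 the Gclm call in Dor-7g was lost, at a change of -1.93. None was called in DOX-7g against Dor-7g, where the background share was 1.16%. An unadjusted limma p under 0.05 was reached by 2 genes in Dor-7g and 1 in DOX-7g against D4-act-7g. Between the dormant groups 1 gene reached it, Hmox1. Of all genes, 14.3%, 11.0% and 11.6% reached that level in these comparisons. In Dor-7g, 5 of the 7 lay with both arrays below both day-4 arrays and none above, where 21.5% of all genes lay below and 24.3% above. In DOX-7g 3 of the 7 lay below and none above, where 30.5% of all genes lay below and 19.2% above. The median change was -0.44 in Dor-7g, beside 0.06 over all genes, and -0.28 in DOX-7g, beside -0.05. Between the dormant groups it was -0.01, beside -0.11. The 7 genes are those bright enough to be tested and not the whole set of 10.

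The wider pathway was read from 6 lists of 86 other redox genes, of which 71 were tested. Of these, 1 gene fell and none rose in Dor-7g against D4-act-7g, where 0.742% of all genes were called lower and 0.243% higher. None passed in DOX-7g against D4-act-7g, where 0.956% of all genes were called. Between the dormant groups 2 were higher in DOX-7g and none lower, where 1.04% of all genes were called higher and 0.121% lower. At an unadjusted limma p under 0.05 the counts were 12, 13 and 9 of the 71, where 14.3%, 11.0% and 11.6% of all genes reached that level. All called genes belong to the list of glutathione users, transferases and turnover, where 27 of 30 genes were tested.

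Glrx encodes glutaredoxin, which uses glutathione to release glutathione bound to proteins. It stood at 7.54 and 7.61 log2 units in D4-act-7g, 5.53 and 5.56 on Dor-7g arrays, and 6.80 and 6.61 in DOX-7g. The 3 groups did not overlap, with DOX-7g in the middle. Glrx fell by 2.03 ± 0.17 in Dor-7g (SE; limma, adjusted p = 0.0103), and this held without Dor-7g replicate 1 but not without D4-act-7g replicate 1 or 2 (adjusted p = 0.125 and 0.11). In DOX-7g its change was -0.86 ± 0.17 (limma, adjusted p = 0.122). Glrx was higher in DOX-7g than in Dor-7g by 1.16 ± 0.17 (limma, adjusted p = 0.0497). The difference was 1.15 without Dor-7g replicate 1, and the call was lost. The call held with no filter on dim probesets, either rescaling of the arrays or probesets averaged. It was lost with trend, array weights, the replicate block or only the 2 groups compared.

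Ggct encodes gamma-glutamylcyclotransferase, which acts on gamma-glutamyl dipeptides in glutathione turnover. It stood at 6.25 and 6.37 log2 units in D4-act-7g, 5.62 and 5.99 on Dor-7g arrays, and 7.43 and 7.13 in DOX-7g. Dor-7g lay below and DOX-7g above the day-4 range. Ggct was higher in DOX-7g than in Dor-7g by 1.47 ± 0.22 (SE, limma, adjusted p = 0.0493). The difference was 1.29 without Dor-7g replicate 1, and the call was lost. The call held with probesets averaged and was lost in each other alternative that kept 2 arrays per group. Against D4-act-7g its changes, -0.51 ± 0.22 in Dor-7g and 0.97 ± 0.22 in DOX-7g, did not pass (limma, adjusted p = 0.373 and 0.163). In DOX-7g, where Glrx and Ggct were higher than in Dor-7g, the blood markers S100a8, S100a9 and Ly6g were also at their highest and Cd68 was not; their part in these results was not tested.

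**Figure D3:**
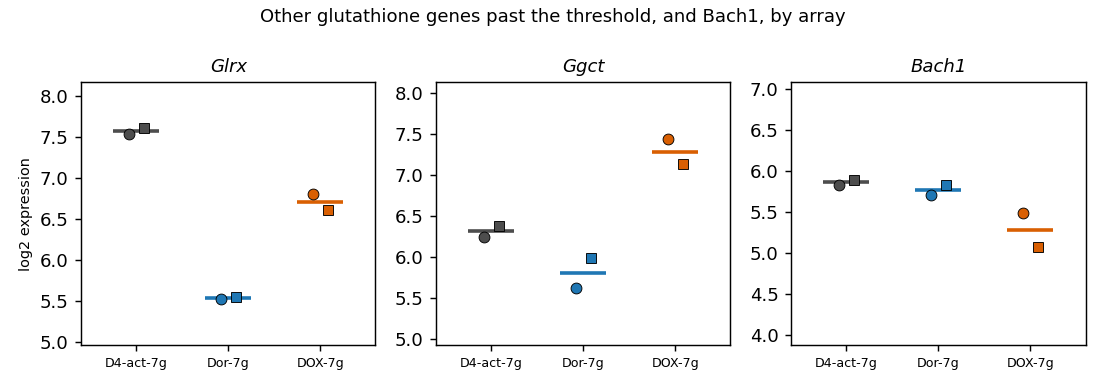
Log2 expression of Glrx, Ggct and Bach1 on each array, by group; circles are replicate 1, squares replicate 2 and bars the group mean, and every panel spans the same number of log2 units. Glrx is near 7.57 in D4-act-7g, 5.54 for Dor-7g and 6.71 in DOX-7g, and Ggct is highest in DOX-7g.

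Of the 10 tested regulators of Nrf2 none passed in any comparison, with 1, 2 and 0 at an unadjusted limma p under 0.05 in Dor-7g and DOX-7g against D4-act-7g and in DOX-7g against Dor-7g, where 14.3%, 11.0% and 11.6% of all genes reached that level. Nfe2l2, which encodes Nrf2 itself, stood at 6.65 and 6.58 log2 units in D4-act-7g, 6.81 and 6.40 on Dor-7g arrays, and 6.41 and 6.54 in DOX-7g. Its changes were -0.01 ± 0.21 and -0.14 ± 0.21 (SE; limma, adjusted p = 0.983 and 0.924). Keap1, its inhibitor, had changes of -0.45 ± 0.25 in Dor-7g and -0.21 ± 0.25 in DOX-7g (limma, adjusted p = 0.464 and 0.887).

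Bach1, the repressor of Hmox1 and a known target of let-7 in human cells, stood at 5.84 and 5.89 log2 units in D4-act-7g, 5.71 and 5.83 on Dor-7g arrays, and 5.48 and 5.08 in DOX-7g. Both DOX-7g arrays lay below the other 4 arrays. Of all genes, 30.5% lay below both D4-act-7g arrays in this way and 26.7% below both Dor-7g arrays. Any link of Bach1 to let-7 or to Hmox1 in these embryos was not tested. The change in DOX-7g was -0.58 ± 0.20 against D4-act-7g (SE; limma, adjusted p = 0.379) and -0.49 ± 0.20 against Dor-7g (adjusted p = 0.439), and neither passed. Mafg, a small Maf partner of Nrf2, had a change of -0.81 ± 0.25 in DOX-7g (limma, adjusted p = 0.318), and Sqstm1, an autophagy receptor that binds Keap1, had one of -0.62 ± 0.21 in Dor-7g (adjusted p = 0.261).

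The other lists held no called gene. Of 11 tested thioredoxin system genes those of smallest unadjusted p in any comparison were Prdx3, the mitochondrial peroxiredoxin, at -0.91 ± 0.22 in Dor-7g (SE; limma, adjusted p = 0.153), and Msra, a methionine sulfoxide reductase, at 0.61 ± 0.21 in DOX-7g against Dor-7g (adjusted p = 0.372). Of 8 NADPH supply genes, Taldo1 of the pentose phosphate pathway was at -0.59 ± 0.19 in Dor-7g (adjusted p = 0.247). Sod2, the mitochondrial superoxide dismutase, was at -0.46 ± 0.22 in Dor-7g (adjusted p = 0.408) among 3 tested genes of superoxide and peroxide removal. Of 12 heme, iron and other Nrf2 targets, Slc40a1, the iron exporter, was at 1.45 ± 0.37 in DOX-7g (adjusted p = 0.206), and Ugdh, which makes UDP-glucuronate, at -1.55 ± 0.40 in Dor-7g (adjusted p = 0.179). Slc40a1 was dim in D4-act-7g, at 4.14 and 4.63 log2 units, below the median of both arrays. It stood at 6.31 and 5.37 in DOX-7g.

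The median change over the 71 genes was -0.09 in Dor-7g and -0.03 in DOX-7g against D4-act-7g, and 0.12 in DOX-7g against Dor-7g, beside 0.06, -0.05 and -0.11 over all genes. Among the lists, the medians in Dor-7g ran from -0.46 for the 3 genes of superoxide and peroxide removal to -0.03 for NADPH supply.

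**Figure D4:**
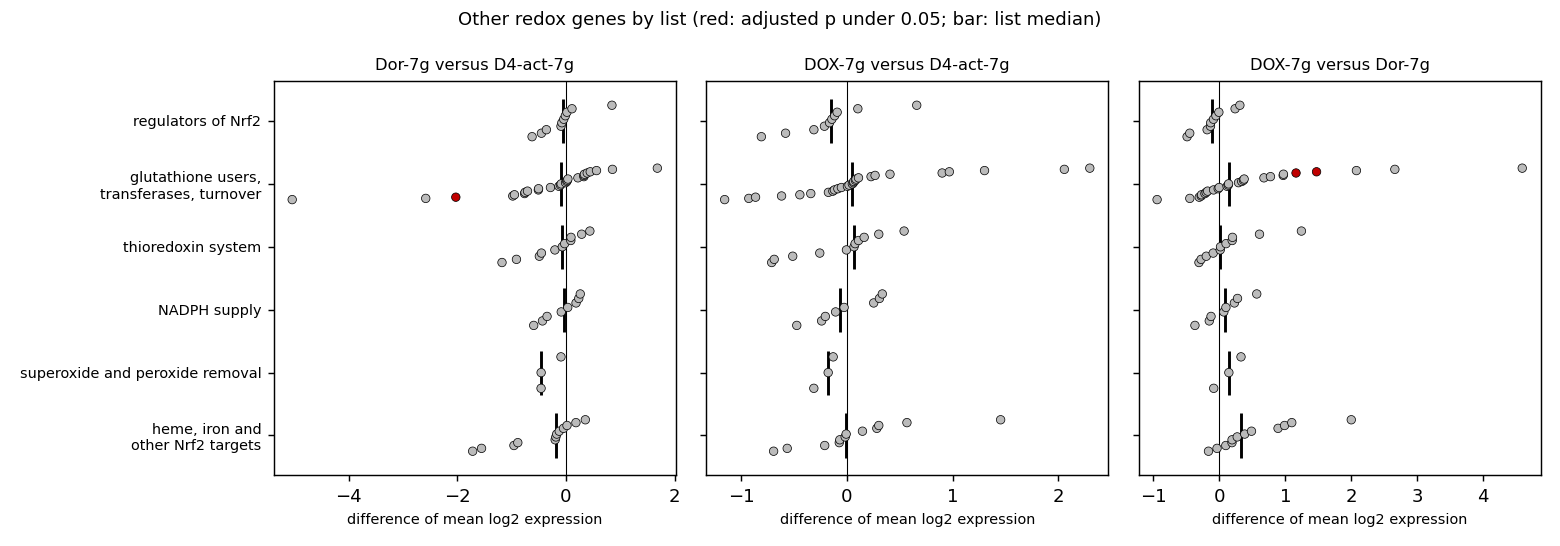
Differences of mean log2 expression for the 71 tested redox genes in the 3 comparisons, 1 point per gene and 1 row per list, with black bars at the list medians and red points past an adjusted p of 0.05; the horizontal scales differ between panels. Glrx is the red point in Dor-7g against D4-act-7g, and Glrx and Ggct are those in DOX-7g against Dor-7g.

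The 3 genes whose array profiles, each centred on its own mean, lay nearest to that of Gclm were Gulo, Ykt6 and Atp13a3, at Euclidean distances of 0.67, 0.80 and 0.81 log2 units over the 6 arrays, where the median gene lay at 2.56. Gulo encodes the last enzyme of vitamin C synthesis. It stood at 7.02 and 7.80 log2 units in D4-act-7g, 5.73 and 5.52 on Dor-7g arrays, and 5.50 and 4.73 in DOX-7g. Ykt6, a SNARE protein of membrane fusion, stood at 8.15 and 7.93 in D4-act-7g, 6.44 and 6.69 on Dor-7g arrays, and 6.87 and 6.32 in DOX-7g. Atp13a3, a polyamine transporter, stood at 7.91 and 7.71 in D4-act-7g, 5.58 and 5.84 on Dor-7g arrays, and 6.21 and 6.11 in DOX-7g. These genes were picked for their likeness to Gclm over the same arrays, so their lower levels in the dormant groups follow from the choice and are given with no test.

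**Figure D5:**
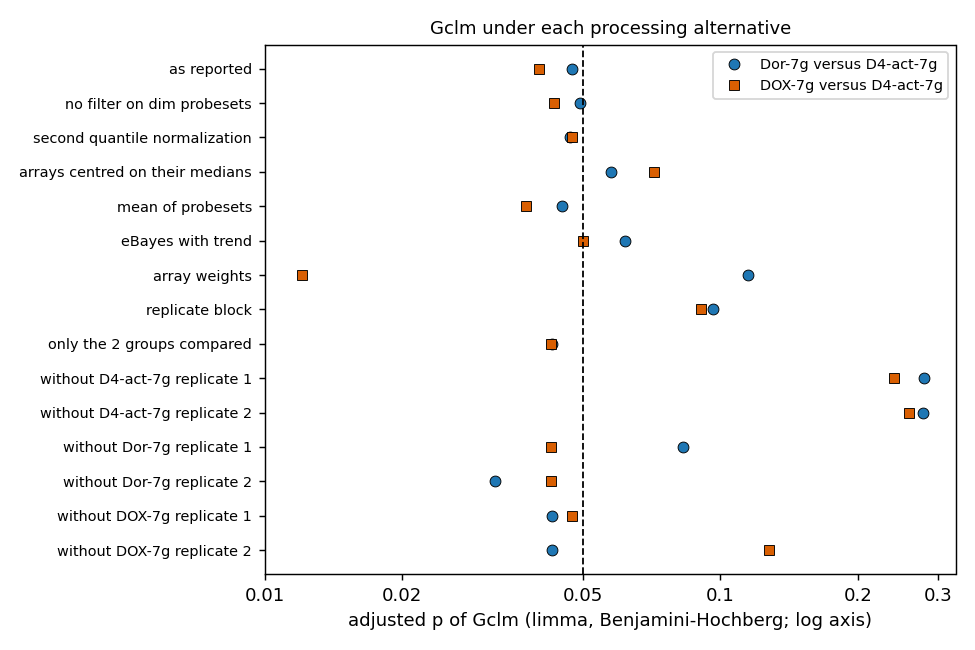
Adjusted p of Gclm from limma on a log axis, as reported, under 8 alternatives and without each array in turn. Blue circles are Dor-7g and orange squares DOX-7g, each against D4-act-7g, with the threshold of 0.05 dashed. For Dor-7g Gclm passed with no filter on dim probesets, the second quantile normalization, probesets averaged or only the 2 groups compared. For DOX-7g it passed with these and with array weights. Dropping an array of the group not compared repeats the fit of only the 2 groups compared. Fits without an array of a compared group cannot measure that group's spread.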

How the data were processed

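The deposited values are log2 expression, for 41345 probesets on each of 6 Mouse Gene ST arrays; Partek 6.6 and RMA, which corrects background, normalizes and summarizes probes, are named with no settings, per the submitters' processing notes. Low input, 10 heat-lysed blastocysts an array per the labels' protocols, limits the precision, as does the number of arrays. No source used here gives the build of the files; printed coordinates are RefSeq's (GRCm38.p6). Probesets were named through the platform annotation, with symbols updated by Entrez identifier; 23521 had 1 symbol, 1814 several and 16010 none, and 193 identifiers were not matched and kept the platform's symbol. A probeset naming 1 gene was tested if 2 or more arrays reached their median there, the brightest representing its gene (14020 genes). limma 3.58.1 in R 4.3.3 fitted 1 mean per group over the 6 arrays jointly, without block or trend (3 residual and 2.81 prior degrees of freedom). p-values were adjusted by Benjamini-Hochberg over all genes within each comparison, at a threshold of 0.05. The fit was tested on simulated data. Named genes are the 10 members, list genes past the threshold or else the 2 of smallest p, Nfe2l2, Keap1 and Bach1, and the 3 profiles nearest to a called member. Members and lists were chosen with earlier results of these data known. The correlations of same-numbered arrays' deviations were -0.02, -0.01 and -0.14, so the numbers were not taken as pairs.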

Additional observations from a re-analysis of the deposited data

How the results depend on the processing

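The counts of called genes and the changes of the 7 tested members were recomputed under 8 alternatives and without each array in turn. So were the changes of the other redox genes named with a test, and the medians over both sets. Counts of arrays that do not overlap and Gclm minus Gclc were not. Fits without 1 array leave 1 array in a group, so their p-values and counts do not measure that group's spread. In each comparison, dropping an array of the group not compared gives the same fit as only the 2 groups compared. The change of Gclm kept its sign throughout in both comparisons with D4-act-7g, from -2.16 to -1.93 in Dor-7g and from -2.52 to -1.76 in DOX-7g, while its limma adjusted p ran from 0.032 to 0.28 and from 0.0121 to 0.26. The count of called members against D4-act-7g went from 1 to 0 in Dor-7g with arrays centred on their medians, eBayes with trend, array weights or the replicate block, and in DOX-7g with centring, trend or the replicate block. It ranged from 0 to 1 without single arrays in both comparisons. Against Dor-7g it was 0 throughout. Array weights gave 79, 461 and 104 called genes of all in Dor-7g and DOX-7g against D4-act-7g and in DOX-7g against Dor-7g (main counts 138, 134 and 163), and only the 2 groups compared gave 86, 296 and 86. The replicate block gave 82 in Dor-7g. Without single arrays these counts ran from 11 to 1172, 43 to 296 and 67 to 880. With the replicate block Glrx and Ggct lost their calls in DOX-7g against Dor-7g (adjusted p = 0.133 and 0.119), and the Glrx call in Dor-7g against D4-act-7g held. Of the other redox genes, without single arrays 0 to 10, 0 to 2 and 0 to 10 were called (main 1, 0 and 2). For DOX-7g against D4-act-7g array weights gave 3 and only the groups compared 2. For DOX-7g against Dor-7g 1 was called with no filter on dim probesets, the second quantile normalization or centring, and 0 with trend, array weights, the replicate block or only the groups compared. These alternatives for the other redox genes and for the medians were chosen after seeing the data. Signs turned in values that passed no test. With the second quantile normalization the changes of Gclc and Nfe2l2 in Dor-7g were -0.0096 and 0.0447, and in DOX-7g against Dor-7g those of Gss and Txnrd1 were -0.0124 and 0.0949. With centring, Gclc was at -0.0682 in Dor-7g, and Gclm, Txnrd1 and Srxn1 were at 0.0168, 0.107 and 0.118 in DOX-7g against Dor-7g. Without single arrays the change in Dor-7g ran from -0.054 to 0.174 for Gclc, from -0.217 to 0.194 for Nfe2l2 and from -0.283 to 0.0843 for Txnrd1. That of Keap1 in DOX-7g ran from -0.490 to 0.0649. That in DOX-7g against Dor-7g ran from -0.496 to 0.267 for Gclm, -0.195 to 0.212 for Gss, -0.208 to 0.159 for Txnrd1 and -0.205 to 0.179 for Srxn1. Centring moved the median change of all genes from 0.06 to -0.07 in Dor-7g and from -0.11 to 0.02 in DOX-7g against Dor-7g. The cause of these shifts was not tested. No other background correction was run, because the deposited values are already summarised.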

Other observations

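Gstp1, a glutathione transferase of the lists above chosen here after its values were seen, stood at 13.12 and 13.07 log2 units in D4-act-7g, 12.48 and 12.83 in DOX-7g, and 5.19 and 10.93 in Dor-7g. Both Dor-7g arrays lay below all others, far apart from each other, and the change of -5.04 ± 1.70 against D4-act-7g did not pass (SE; limma, adjusted p = 0.264). Without Dor-7g replicate 1 it was -2.16 and without replicate 2 it was -7.91. Each of these fits keeps 1 Dor-7g array and so leaves out the gap between that pair. The change passed in no alternative that kept 2 arrays per group. Txn1, which encodes thioredoxin, and Blvrb, a biliverdin reductase, also had their lowest value on Dor-7g replicate 1. Txn1 stood at 9.33 there and between 10.93 and 11.44 on the other 5 arrays, and Blvrb at 7.06 there and between 8.87 and 10.14. Further listed genes were lowest on that array too, among them Mgst3, Gstk1, Slc3a2 and Nqo2. Others were highest there, among them Maff, Osgin1 and Chac1. All these genes were named after their values were seen. Gstp1 has close copies in the mouse genome, so which copy was measured is uncertain.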
